A study of Mus musculus with 84 samples.

Results

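Klf2, Klf3, Klf4, Klf6 and Klf10, 5 genes of the Krüppel-like factor (KLF) family of zinc finger transcription factors, and Nos3, the gene of endothelial nitric oxide synthase, were followed over 84 single mouse cells. They were taken by symbol, 6 of the 20308 genes in the expression table, and all 6 were found. The cells were isolated at embryonic day E11.5 from the AGM, short for aorta-gonad-mesonephros, which is the part of the trunk around the dorsal aorta. Cells carried the endothelial surface proteins CD31 and CD144 and lacked the blood cell proteins CD41 and CD45, and each was captured, amplified and sequenced on its own. Strain, genotype, treatment and embryo are not given in the labels used here, so all 84 cells were treated as 1 group and 1 sample. No test across cells was run: differences between cells are descriptions, and intervals on shares of cells cover counting error only.

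Endothelial cells read the drag of flowing blood on their surface. In a well-known route, the kinases MEKK3, MEK5 and ERK5 activate MEF2 transcription factors, which switch on Klf2 and Klf4. These factors in turn raise Nos3 and thrombomodulin (Thbd) and lower endothelin (Edn1), and the nitric oxide made by Nos3 relaxes the vessel wall. Of the other family members, Klf3 is mainly a repressor, Klf6 is known from the response of the vessel wall to injury, and Klf10 is an early target of TGF-beta. Gja4, a gap junction protein, and Dll4, a ligand of the Notch receptors, are used as marker genes of arteries. Flow itself was not measured in these cells.

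The promoter of Klf2 is shown because the route above meets the family there, and that of Klf3 because it held the most matches to a KLF motif among the 4 members with an entry in the promoter table. Sequences are those of RefSeq for GRCm38.p6, on the plus strand and 5′ to 3′. The Klf2 stretch is chr8:72318899-72318998, which begins 163 bases and ends 64 bases before the annotated start. Its match to the pattern searched for MEF2, CTA and TAG with any 4 bases between them, is in capitals. The Klf3 stretch is chr5:64803391-64803487, from 130 to 34 bases before the start, with matches to CACCC or its reverse complement GGGTG, the core of KLF binding sites, in capitals.
Klf2: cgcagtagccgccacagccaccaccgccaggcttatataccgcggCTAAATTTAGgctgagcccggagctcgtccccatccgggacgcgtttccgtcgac
Klf3: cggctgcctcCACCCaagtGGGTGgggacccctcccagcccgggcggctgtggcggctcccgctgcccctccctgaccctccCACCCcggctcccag

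The pattern searched for MEF2 reads the same on both strands, and other forms of MEF2 sites were not searched. Over the 250 bases before the start it matched once in Klf2, from 118 to 109 bases before the start, and 0 times in Klf3, Klf4 and Klf6. Of 32851 promoters, 1052 (3.20%) held it. CACCC, searched on both strands, matched 5 times in Klf3, once in Klf2 and 0 times in Klf4 and Klf6, beside 17087 of 32851 promoters (52%) with at least 1 match. Neither stretch shown holds both motifs: the Klf2 match to CACCC begins 19 bases before the start, outside the stretch shown. A match is a match of letters and does not show that a factor binds there.

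Values are TPM, which scales transcripts to a fixed total per cell, a measure that divides by transcript length and so allows levels of different genes to be compared. The depth of each cell is unknown, since TPM does not keep it, and a 0 may stand for a transcript that was absent or that was lost before sequencing. TPM of 1 or above counted as detection. A median of 6978 genes was detected per cell, from 3334 to 10073. The sort was visible in transcripts: Cdh5 (CD144) was detected in 82 cells, Pecam1 (CD31) in 80, and Itga2b (CD41) in 7. The highest Itga2b value was 686 TPM. Markers of mesenchyme, the loose connective tissue around vessels, were present too. In 34 cells at least 3 of 11 such markers reached TPM 10, and these are called mesenchyme-marker cells. The 11 markers summed to between 76.6 and 2854 TPM in them, against 0.04 to 68.6 TPM in the other 50 cells. That gap follows largely from the rule, which uses the same markers. Of 15 endothelial genes, 14 were lower in mesenchyme-marker cells by more than 1 log2 unit, beside 6.40% of all genes detected in at least 5 cells.

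Klf6 was detected in the most cells and had the highest level. It was found in 75 of 84 cells (89.3%, exact 95% interval 80.6 to 95), with a lowest value of 0, a median of 83.5 and a highest of 496 TPM. In 36 cells it passed 100 TPM, and in 42 cells it was the highest of the 6 genes. Its RefSeq locus is chr13:5861489-5870393. Only 1 cell had Klf6 at 0.

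Klf3 (chr5:64803521-64832901) was detected in 71 cells (84.5%, 75 to 91.5), with a median of 37.8 and a highest value of 439 TPM. Klf10 (chr15:38291464-38300711) was detected in 62 cells (73.8%, 63.1 to 82.8), with a median of 15.8 TPM. Its highest value, 603 TPM, was the highest of any of the 6 genes in any cell, and the next Klf10 value was 328 TPM. The 5 highest cells held 42.2% of the summed TPM of Klf10, against 28.1% for Klf3 and 20.7% for Klf6. This was not particular to Klf10, since the share was 42.1% for Klf2 and 37.1% for Klf4.

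The factors best known from flow were found in fewer cells. Klf4 (chr4:55527137-55532475) was detected in 51 cells (60.7%, 49.5 to 71.2), with a median of 3.34 and a highest value of 245 TPM. Klf2 (chr8:72319062-72321654) was detected in 34 cells (40.5%, 29.9 to 51.7), with a median of 0.600 and a highest value of 137 TPM. Over the 34 cells with Klf2 its median was 24.3 TPM, close to the 19.9 TPM of Klf4 over its 51 cells. It was below the medians of Klf10 (33.4), Klf3 (66.5) and Klf6 (92.6 TPM) over the cells with each. Such medians leave out all cells under TPM 1. A further 18 cells held Klf2, and another 18 Klf4, at values above 0 but under 1 TPM.

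Nos3 (chr5:24364816-24384474) had the lowest level of the 6. It was detected in 35 cells (41.7%, 31 to 52.9), was at 0 in 43 cells, and reached at most 71.3 TPM. Its median over the 35 cells with it was 6.88 TPM, below that of each KLF member, and 0 cells passed 100 TPM. The 5 highest cells held 48.6% of its summed TPM.

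By mean TPM the order was Klf6 (108), Klf3 (76.3), Klf10 (46.1), Klf4 (30.9), Klf2 (14.7) and Nos3 (7.01). All neighbours in this order overlapped widely. Klf6 was above Klf3 in 53 of 84 cells, Klf3 above Klf10 in 53, Klf10 above Klf4 in 50, Klf4 above Klf2 in 49, and Klf2 above Nos3 in 38, with 18 ties. Over the 7 sets of 12 cells that share the second index of their library barcode, Klf6 was detected in 9 to 12 cells of a set, Klf4 in 5 to 10, Klf2 in 3 to 7 and Nos3 in 2 to 8.

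**Figure D1:**
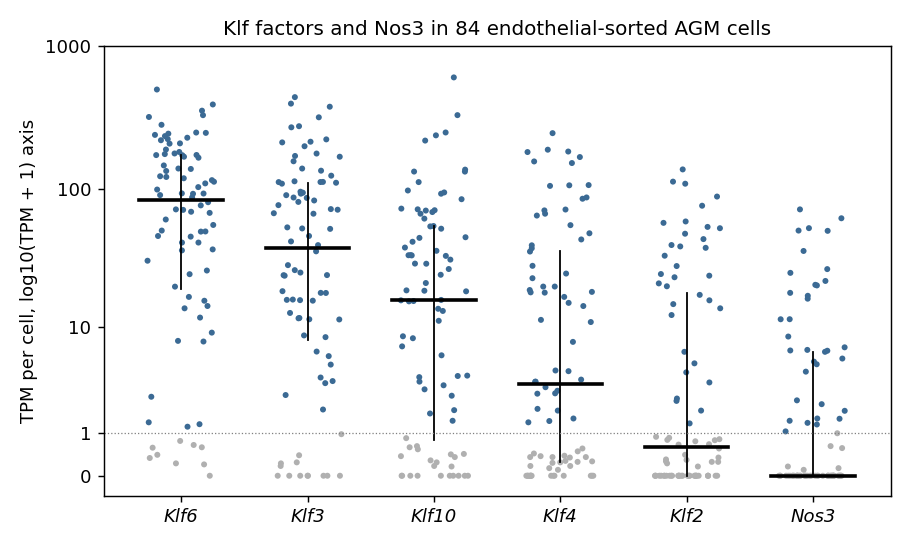
TPM of the 6 genes in each of 84 cells on a log10(TPM + 1) axis; blue points are cells at TPM 1 or more, grey points cells below it, horizontal bars medians and vertical lines the span between quartiles. Medians step down from 83.5 TPM for Klf6 to 0 for Nos3, with wide overlap between neighbours.

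Among the other 12 KLF genes, Klf13 was found in each of the 84 cells at a median level of 70.8 TPM, next to Klf6 in level. Klf7 was detected in 58 cells, Klf11 in 52 and Klf16 in 32. Klf12 was found in 20 cells, Klf14 in 15, Klf9 in 10, Klf5 in 7 and Klf8 in 5. Klf1, the KLF of red blood cells, Klf15 and Klf17 were each found in 1 cell. Klf2 and Klf4 were thus neither the commonest nor the highest KLF transcripts of these cells.

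Most cells held several of the 6 genes. The median was 4 per cell, 53 cells (63.1%, 51.9 to 73.4) held 4 or more, and 11 cells (13.1%, 6.72 to 22.2) held all 6. The number of genes detected in all was highest in cells with 5 or 6 of them: the median was 7758 detected genes in the 11 cells with all 6 and 7377 in the 18 cells with 5. It was 6924 in the 24 cells with 4, 6982 in the 18 cells with 3 and 6386 in the 10 cells with 2. Of the 11 cells with all 6 genes, 7 held Gja4 and 6 held Dll4. The part of sensitivity per cell in these counts was not tested.

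**Figure D2:**
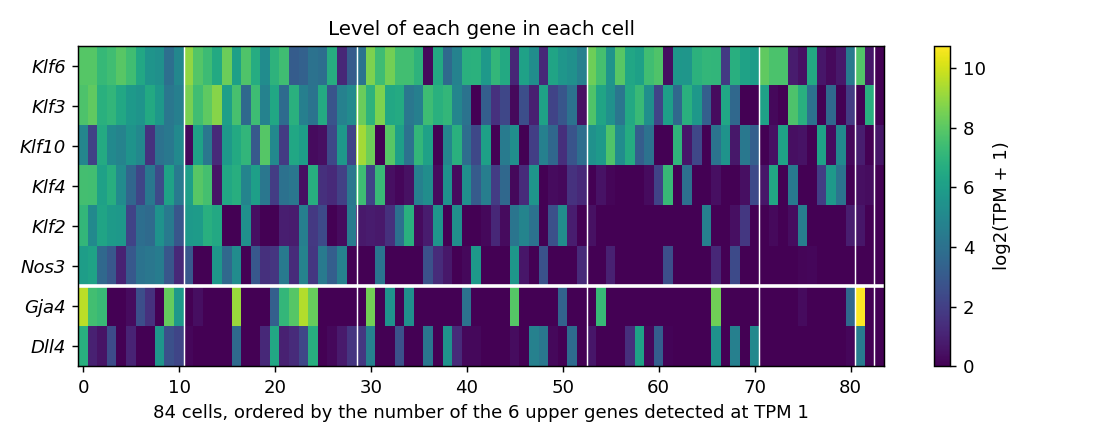
Level of the 6 genes and of Gja4 and Dll4, as log2(TPM + 1), in each of 84 cells, with cells ordered from 6 of the upper genes detected to 0 and white lines between counts. Klf6 and Klf3 are bright in most cells, and Klf2, Nos3, Gja4 and Dll4 thin out towards the right.

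Pairs of the genes were compared by asking in what share of cells a gene was detected among cells with, and among cells without, another. Of 15 pairs, 13 had a higher share in the cells with the other gene. In the 42 cells above the median number of detected genes only 7 of 15 did. Spearman correlations over the 84 cells ran from -0.05 to 0.33, with a median of 0.14, and share the cells' capture and depth. Most pairs were therefore weakly related at most.

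Nos3 and Klf4 were the pair with the highest correlation (0.33). Nos3 was detected in 28 of 51 cells with Klf4 (54.9%, 40.3 to 68.9), against 7 of 33 cells without Klf4 (21.2%, 8.98 to 38.9). The intervals do not overlap, but they cover counting error only and make no allowance for picking this pair by its correlation. The embryo of each cell is not given, so the gap is a description and not a test. In cells above the median of detected genes the shares were 18 of 27 with Klf4 (66.7%) and 3 of 15 without it (20%), so the gap was no narrower there. The number of detected genes was close in the groups, with medians of 7091 with Klf4 and 6898 without.

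Klf2 showed a smaller gap. Nos3 was detected in 18 of 34 cells with Klf2 (52.9%, 35.1 to 70.2). Without Klf2 it was detected in 17 of 50 (34%, 21.2 to 48.8). These intervals overlap, and whether the gap differs from that by Klf4 was not tested. Above the median of detected genes the shares were 12 of 22 with Klf2 (54.5%) and 9 of 20 without (45%). The shares of Klf2 itself were close with and without Klf4: Klf2 was found in 21 of 51 cells with Klf4 (41.2%) and in 13 of 33 without it (39.4%). Their levels correlated at 0.25.

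**Figure D3:**
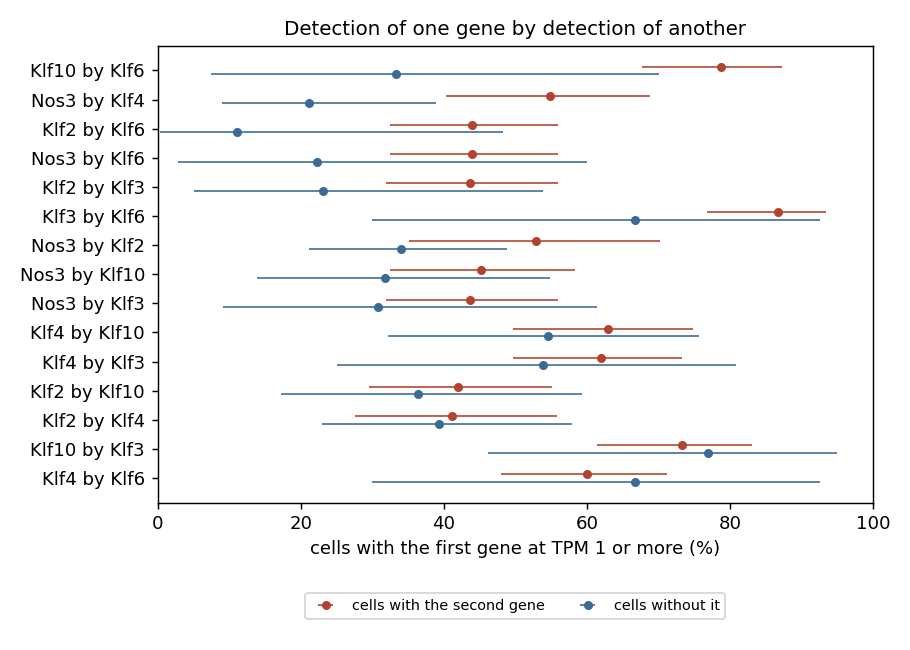
Share of cells with a first gene among cells with (red) and without (blue) a second gene, for the 15 pairs, with exact 95% intervals that cover counting error. Nos3 by Klf4, at 54.9% against 21.2%, has the widest gap among pairs not split by Klf6, and the 9 cells without Klf6 give wide intervals.

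Cells were also split by Klf2 and Klf4 together. Nos3 was detected in 14 of 21 cells with Klf4 and Klf2 (66.7%, 43 to 85.4), with a median of 6.33 TPM. In the 30 cells with Klf4 but not Klf2 it was detected in 14 (46.7%, 28.3 to 65.7), and in the 13 cells with Klf2 but not Klf4 in 4 (30.8%, 9.09 to 61.4). In the 20 cells with neither it was detected in 3 (15%, 3.21 to 37.9). Nos3 was high in cells of each of the first 3 groups, with highest values of 71.3, 52.5 and 50.5 TPM, against 5.58 TPM in cells with neither factor. Neighbouring groups overlapped in their intervals. Median detected genes were 7561 in the cells with both factors and between 6706 and 6995 in the other groups, and 8 of 21, 14 of 30, 2 of 13 and 10 of 20 were mesenchyme-marker cells.

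**Figure D4:**
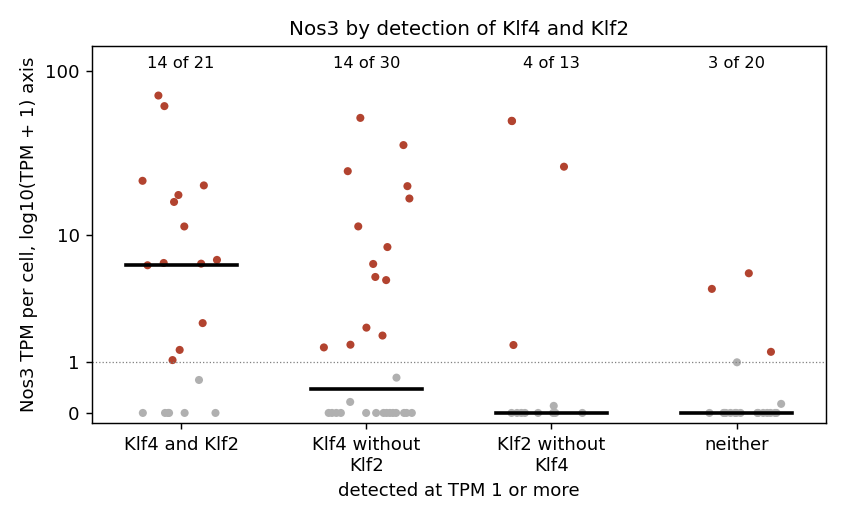
Nos3 TPM per cell on a log10(TPM + 1) axis by detection of Klf4 and Klf2; red points are cells with Nos3 at TPM 1 or more, grey points cells below it, bars are medians and the counts above give cells with Nos3. Detection is most frequent in cells with both factors (14 of 21) and least in cells with neither (3 of 20).

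Levels were next compared as the difference of mean log2(TPM + 1), cells with a splitting gene minus cells without it, and a difference past 1 log2 unit was called. This scale understates differences of low genes. In the split by Klf4, Nos3 had a lowest value of 0, a median of 1.42 and a highest of 71.3 TPM in 51 cells with Klf4, against 0, 0 and 50.5 TPM in 33 cells without it. The ranges overlap. The difference was 1.11 log2 units, and Nos3 was the only 1 of 5 members called higher, where 3.22% of all genes detected in at least 5 cells were called higher and 0.926% lower. It was 0.35 with a pseudocount of 10, 0.65 with Klf4 counted from TPM 10, and 0.88, 0.95 and 0.88 without second-index sets 1, 3 and 7. Among cells above the median of detected genes it was 1.59. Within the 7 second-index sets it was positive in 6 and ran from -1.40 to 2.65. The members are detected in 34 to 75 cells, and of all genes detected in 20 to 75 cells 4.97% were called higher by Klf4, 8.33% by Nos3, 7.38% by Klf2, 8.92% by Gja4 and 6.90% by Dll4.

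The widest difference of a member in any split was that of Klf4 by Nos3. Klf4 had a median of 18.1 TPM (0 to 182) in 35 cells with Nos3, against 0.430 TPM (0 to 245) in 49 cells without it, a difference of 1.69 log2 units. Klf3, the repressor, had a median of 67.0 TPM (0 to 439) with Nos3, against 17.9 TPM (0 to 317) without it, a difference of 1.28. These 2 of 5 members were called higher, beside 5.64% of all genes called higher and 0.950% called lower, and Klf2 at 0.98 lay just under the limit. Klf6 and Klf10 differed by -0.10 and 0.00. With a pseudocount of 10 Klf4 and Klf3 were at 0.82 and 0.83, and without second-index sets 2 and 4 Klf2 was at 1.37 and 1.16. Klf4 and Klf3 by Nos3 were each positive within 6 of the 7 sets. They ran from -1.55 to 2.79 and from -1.16 to 2.67.

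Cells with Nos3 also carried more endothelial and fewer mesenchyme transcripts. Of 15 endothelial genes, 10 were called higher with Nos3, with a median difference of 1.11 beside 0.14 over all genes, and 5 of 11 mesenchyme markers were called lower. Those 11 markers summed to a median of 5.02 TPM (0.19 to 758) in cells with Nos3, against 52.9 TPM (0.04 to 2854) in cells without it. Mesenchyme-marker cells were 10 of 35 with Nos3 and 24 of 49 without. Without the mesenchyme-marker cells, Klf4 was still called and Klf3 was not, at 0.84. In that setting 4 of 15 endothelial genes were called higher, beside 5.20% of all genes. The part of the mesenchyme-marker cells in the other differences by Nos3 was not tested.

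In the split by Klf2, 0 of 5 members were called higher, beside 4.86% of all genes. Nos3 came closest at 0.90 log2 units, with a median of 1.19 TPM (0 to 71.3) in 34 cells with Klf2, against 0 TPM (0 to 52.5) in 50 cells without it. Klf6 followed at 0.78 and Klf3 at 0.71, with Klf4 at 0.57 and Klf10 at -0.31. With Klf2 counted from TPM 10, Nos3 and Klf3 passed the limit, at 1.08 and 1.17. Among cells above the median of detected genes they were at 0.35 and -0.07.

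Gja4 and Dll4 were each used to split the cells. In 23 cells with Gja4, Nos3 was detected in 15 (65.2%, 42.7 to 83.6), with a median of 2.16 TPM (0 to 71.3), against 20 of 61 cells without Gja4 (32.8%, 21.3 to 46), with a median of 0 TPM (0 to 52.5). The difference was 1.29 log2 units, and it was positive within each of the 7 second-index sets, from 0.28 to 2.65. A set held only 2 to 4 cells with Gja4. Klf2 was detected in 13 of 23 cells with Gja4 (56.5%, 34.5 to 76.8), against 21 of 61 without (34.4%, 22.7 to 47.7), and differed by 1.02. Within the 7 sets the Klf2 difference was positive in 6 and ran from -0.46 to 2.98. Nos3 and Klf2 were the 2 of 6 members called higher by Gja4, beside 5.85% of all genes.

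Klf4 was found as often with Gja4 as without it, in 14 of 23 cells (60.9%) and 37 of 61 cells (60.7%), and its level differed by 0.45. Klf6 was found in all 23 cells with Gja4 and in 52 of 61 without, at a difference of 0.71, and Klf10 differed by 0.77 and Klf3 by 0.10. Median detected genes were 7249 with Gja4 and 6729 without. Klf2 was under the limit at 0.38 among cells above the median of detected genes, and at 0.98 after median-of-ratios scaling, 0.81 with Gja4 counted from TPM 10, 0.93 without mesenchyme-marker cells, and 0.96 and 0.66 without second-index sets 6 and 7. Nos3 was under it at 0.54 with a pseudocount of 10 and at 0.99 without set 3. Klf10 passed it at 1.07 without mesenchyme-marker cells and at 1.28 with a pseudocount of 0.1, and Klf6 at 1.05 without set 4.

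In the split by Dll4, Klf10 was the member past the limit. It had a median of 29.3 TPM (0 to 603) in 29 cells with Dll4, against 11.1 TPM (0 to 248) in 55 cells without it. The ranges overlap, and the cell with the highest Klf10 value held Dll4. Klf10 was detected in 25 of 29 cells with Dll4 (86.2%, 68.3 to 96.1) and in 37 of 55 without (67.3%, 53.3 to 79.3). The difference of 1.38 log2 units was positive within each of the 7 second-index sets, from 0.49 to 2.93. A set held only 2 to 6 cells with Dll4. Klf10 was the 1 of 6 members called higher, beside 4.55% of all genes. With Dll4 counted from TPM 10 the difference was 0.23, and with a pseudocount of 10 it was 0.73. Among cells above the median of detected genes, Klf6 was lower with Dll4, at -1.35.

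Nos3 was detected in 16 of 29 cells with Dll4 (55.2%) and 19 of 55 without (34.5%), but its level differed by only 0.25. Klf4 and Klf3 differed by 0.56 and 0.53, Klf2 by 0.05 and Klf6 by -0.20. Gja4 and Dll4 were found together in 11 cells, and Gja4 differed by 1.93 between cells with and without Dll4. Over the 84 cells Klf10 correlated with Gja4 at 0.17 and with Dll4 at 0.16, and Nos3 at 0.31 and 0.26. Whether the differences by Gja4 and by Dll4 differ from each other was not tested.

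**Figure D5:**
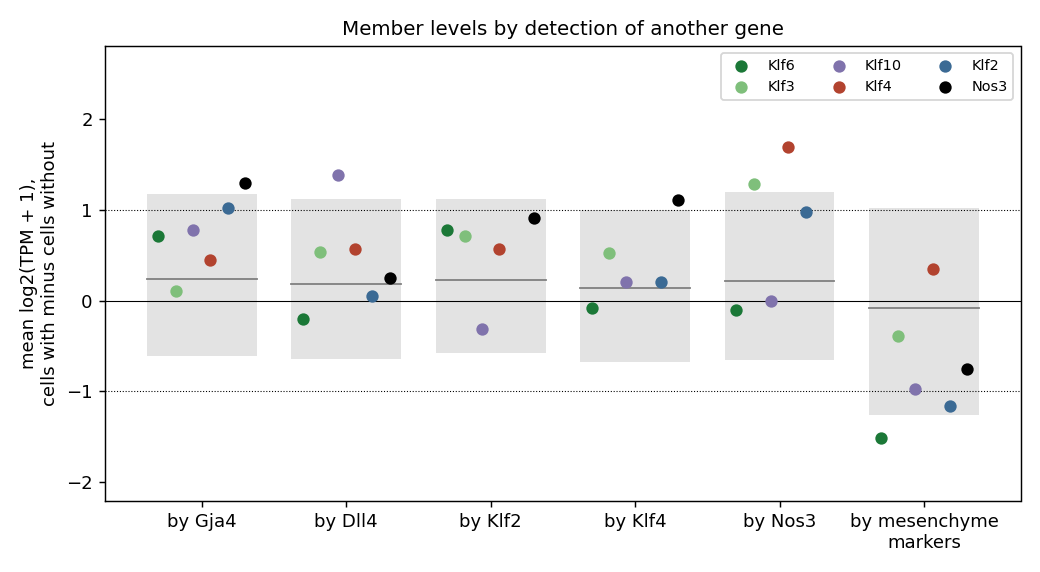
Difference of mean log2(TPM + 1), cells with minus cells without a splitting gene or mesenchyme markers, for each of the 6 genes; grey boxes span the 5th to 95th percentile of genes detected in 20 to 75 cells, grey lines their median, and dotted lines 1 log2 unit. Nos3 and Klf2 pass the limit by Gja4, Klf10 by Dll4, Nos3 by Klf4, and Klf4 and Klf3 by Nos3.

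Mesenchyme-marker cells held less Klf6 and Klf2. Klf6 had a median of 43.6 TPM (0 to 353) in the 34 mesenchyme-marker cells, against 106 TPM (0.22 to 496) in the other 50, a difference of -1.51 log2 units. Klf2 was detected in 10 of 34 of them (29.4%, 15.1 to 47.5), against 24 of 50 (48%, 33.7 to 62.6), a difference of -1.16. These 2 of 6 members were called lower, beside 6.40% of all genes. Klf10 differed by -0.97, Nos3 by -0.75 and Klf3 by -0.39, while Klf4 differed by 0.35. Without second-index set 5, Klf6 was marginally short of the limit and Klf2 was at -0.91, and with a pseudocount of 10 they were at -0.98 and -0.58.

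Genes of the route above the factors were set beside them by list. For this list and those that follow, 5.64% of all genes were called higher by Nos3, 4.86% by Klf2 and 3.22% by Klf4. Without mesenchyme-marker cells these shares were 5.20%, 5.89% and 4.16%. Of 13 genes of the MEKK3, MEK5, ERK5, MEF2 and CCM group, 5 were called higher with Nos3. They were Heg1 (1.66), an endothelial receptor that binds the CCM protein Krit1, Map3k3 (1.45), which encodes MEKK3, the MEF2 genes Mef2a (1.30) and Mef2c (1.16), and Hdac7 (1.14), a repressor of MEF2. With Klf2, 2 of 13 were called higher, Map3k3 (1.04) and Heg1 (1.03). With Klf4, 0 of 13 were, and the median difference was -0.17, beside 0.10 over all genes. The medians of the list were 0.66 by Nos3 and 0.32 by Klf2, beside 0.14 and 0.16 over all genes. Without mesenchyme-marker cells, Heg1 (1.38) was the 1 of 13 called by Nos3, and by Klf2 0 of 13 were called higher and Ccm2 lower (-1.74).

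Of 12 genes of flow sensing at the cell surface, Pecam1 (1.25), the lipid receptor S1pr1 (1.05) and the VEGF receptor Kdr (1.02) were called higher with Nos3, and 0 were with Klf2 or Klf4. Pecam1 and Kdr are also in the endothelial list, and S1pr1 is also in the target list below. Without mesenchyme-marker cells these 3 were at 0.27, 0.56 and 0.85, so 0 of 12 were called higher with Nos3, and Pkd2 was called lower (-1.42). The stretch-gated channel Piezo1 was detected in 67 cells at a median of 10.2 TPM and differed by 0.35, 0.27 and 0.12 in these splits. Of 11 genes of TGF-beta signalling, Smad7 (1.12) was the 1 called higher by Klf2 and Id1 (1.21) the 1 by Klf4. Id1 was at -0.82 by Klf2. Without mesenchyme-marker cells Smad7 (1.72) and Smad4 (1.04) were called higher by Klf2, and Smad2 (-1.32) and Id1 (-1.15) lower. Id1 by Klf4 was then at 1.37.

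Of 12 listed targets of Klf2 or Klf4 with data in at least 5 cells, Edn1 was the 1 called higher by Klf2. It was detected in 18 of 34 cells with Klf2 (52.9%, 35.1 to 70.2), with a median of 3.97 TPM (0 to 322), against 9 of 50 cells without Klf2 (18%, 8.58 to 31.4), with a median of 0 TPM (0 to 242). The difference was 2.09 log2 units, and 1.87 without mesenchyme-marker cells. Thbd differed by 0.98 by Klf2, and by 1.59 without mesenchyme-marker cells, where 2 of 12 targets were called higher. By Nos3, Thbd differed by 1.64 and was detected in 23 of 35 cells with Nos3 (65.7%) and 19 of 49 without (38.8%). By Klf4, Nos3 was the only target called, which is the same difference as given above for Nos3 as a member. The list had a median of -0.04 by Klf4, beside 0.29 by Klf2. Edn1 differed by 0.38 and Thbd by -0.18.

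Around nitric oxide synthase itself, Cav1, the caveolar protein that holds the enzyme inactive, was far higher with Nos3. It was detected in 33 of 35 cells with Nos3, with a median of 176 TPM (0 to 1425), against 34 of 49 cells without it, with a median of 34.2 TPM (0 to 938), a difference of 2.41. Gchfr, a regulator of the enzyme that starts the synthesis of its cofactor tetrahydrobiopterin, differed by 2.04, and by 0.69 without mesenchyme-marker cells, where Cav1 kept 2.22. These were 2 of 20 pathway genes called with Nos3, beside 5.64% of all genes. By Klf2, Cav1 differed by -0.42. Nosip (1.05), a binding partner of the enzyme, was the 1 gene of 21 called higher, a share close to the 4.86% of all genes.

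Among 18 arterial genes, 4 were called higher with Nos3. They were Gja4 (1.98), the transcription factor Epas1 (1.48), the ephrin ligand Efnb2 (1.39) and the receptor Nrp1 (1.27). With Klf2, 3 were called: Epas1 (1.30), the Notch ligand Jag1 (1.16) and Gja4 (1.06). The Gja4 values come from the same cells as the differences of Nos3 and Klf2 by Gja4 above. With Klf4, 0 of 18 were called, Gja4 differed by -0.09 and Dll4 by 0.51. The medians of the list were 0.67 by Nos3, 0.42 by Klf2 and 0.10 by Klf4. Without mesenchyme-marker cells the counts called higher were 5, 3 and 1 of 18, and the genes were partly others. By Nos3, Efnb2 was then at 0.89 while Dll4 (1.27) and Notch4 (1.10) passed the limit. By Klf2, Gja4 was at 0.81 while Gja5 (1.04) passed it and Unc5b was called lower (-1.27), and the gene called by Klf4 was Unc5b (1.14).

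Over all 84 cells the remaining arterial genes differed by less than 1 log2 unit in each of these splits. By Nos3 they ran from -0.17 for Heyl to 0.93 for Notch1, with Dll4 at 0.90, Jag1 at 0.89, Notch4 at 0.75 and Gja5 at 0.74. By Klf2 they ran from -0.72 for Unc5b to 0.84 for Hey1, with Gja5 at 0.83, Tmem100 at 0.72 and Notch1 at 0.63. By Klf4 they ran from -0.55 for Notch4 to 0.63 for Jag1. Cxcr4 and Sox17 stood at 0.45 and 0.29 by Nos3, -0.09 and 0.19 by Klf2, and 0.00 and 0.18 by Klf4.

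Venous genes did not move together by Nos3: 5 of 9 differences were positive, and 3 were called higher. These were the apelin receptor Aplnr (2.17), endomucin, Emcn (2.04), which is also in the endothelial list, and Stab1 (1.05). Dab2 (-0.79), Flrt2 (-0.25), Ephb4 (-0.21) and Nr2f2 (-0.02) were negative. Without mesenchyme-marker cells Stab1 was at 0.69 and Dab2 was called lower (-1.02). By Klf2, 0 of 9 were called, and by Klf4 the 1 called was Dab2, which was lower (-1.70). Among the other KLF genes, Klf16 (1.28) and Klf7 (1.09) were called higher with Nos3, Klf7 (1.58) with Dll4 and Klf11 (1.16) with Gja4. Without mesenchyme-marker cells Klf7 by Nos3 was at 0.24 and Klf11 by Gja4 at 0.84. Single markers of other cell types were called too, with their part not tested. The neural gene Stmn2 was higher with Gja4 (1.67), Nos3 (1.54), Klf2 (1.16) and Klf4 (1.05). The other neural genes with data, Elavl4, Tubb3 and Sox2, were at -0.37, -0.33 and -0.21 by Gja4, and Elavl4 was called lower with Nos3 (-1.01).

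The lymphatic markers did not move together. Pdpn was lower with Nos3 (-2.01) and Gja4 (-1.39) and stood at -0.83 by Klf2. Lyve1 was higher with Klf2 (1.04) and stood at 0.39 by Nos3, where Flt4 was at 0.35 and Prox1 at -0.07. Of the 3 platelet markers with data in at least 5 cells, Pf4 was called higher with Klf2 (1.13), and Gp1bb and Itga2b were at 0.17 and 0.25. Pf4 reached 35696 TPM. All 6 listed platelet markers summed to at most 50219 TPM in cells with Klf2, against 150 TPM without it. The median sum was 0 in both groups. The part of that highest cell was not tested.

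Several of these factors are also induced within minutes when tissue is taken apart, so 12 immediate early genes were set beside them. The mean level of that list correlated with Klf2 at 0.35 and with Klf4 at 0.27 over 84 cells, and with Klf6, Klf10, Klf3 and Nos3 at between 0.08 and 0.12. In the 50 cells that are not mesenchyme-marker cells the correlations were 0.54 for Klf2, 0.42 for Klf6, 0.30 for Klf3 and 0.28 for Klf4. By Klf4, 3 of 12 were called higher, the phosphatase Dusp1 (1.75), Fos (1.75) and Ier2 (1.11), and Atf3 was called lower (-1.08). Without mesenchyme-marker cells Fos was at 0.84, and Dusp1 (1.92), Ier2 (1.44) and Atf3 (-1.38) were still called. By Klf2, 12 of 12 differences were positive, with a median of 0.62, and Zfp36 (1.52) and Dusp1 (1.23) were called. Without mesenchyme-marker cells the median was 0.95 and 5 of 12 were called higher by Klf2: Zfp36 (2.40), Egr1 (1.47), Dusp1 (1.35), Atf3 (1.11) and Fos (1.06). By Gja4, Zfp36 (1.88) was the 1 of 12 called, beside 5.85% of all genes. Without mesenchyme-marker cells Zfp36 (2.13) and Fos (1.61) were called higher by Gja4 and Dusp1 lower (-1.02). The part of these genes in the member differences by Gja4 was not tested. The summed list had a median of 630 TPM with Klf2 and 519 TPM without, and 582 TPM with Klf4 and 455 TPM without. It was 723 TPM with Gja4 and 518 TPM without, 562 and 530 TPM by Nos3, and 458 and 582 TPM by Dll4. Without the cells in the upper quartile of that sum, Nos3 differed by 1.21 by Klf4 and by 0.52 by Klf2, against 1.11 and 0.90 over all cells; this setting was added once values were known.

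The genes whose levels ran most like each member over the 84 cells were ranked by Spearman correlation among 9682 genes detected in at least 20 cells. For Klf2 the first 5 were Edn1 (0.54), the glutathione transferase Gstm1 (0.50), the clotting protein Vwf (0.50), the G protein regulator Rgs2 (0.50) and the chaperone partner Dnajb9 (0.49), where 95% of genes lay under 0.24. Vwf was detected in 18 of 34 cells with Klf2 and 8 of 50 without. For Nos3 they were Zc3h7a (0.49), 1110032A03Rik (0.46), Arsa (0.46), the transcription factor Mecom (0.46) and Slc9a3r2 (0.45). For Nos3, Gja4 ranked 160 and Dll4 359. For Klf2, Gja4 ranked 183 and Dll4 5264.

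For Klf10 the first 5 held the Src family kinases Lyn (0.45) and Lck (0.44), with Myzap (0.45), Dock6 (0.44) and the catenin Ctnna1 (0.43). Klf3 was led by Foxn2 (0.45), Bsg, Gstm1, Rdx and Wwox, Klf4 by Cpt1a (0.43), Trub2, Fam160a2, Fbln2 and Brpf3, and Klf6 by Cbfa2t3 (0.47), Riok2, Mapk14, 3110002H16Rik and 8030462N17Rik. In the 50 cells that are not mesenchyme-marker cells, 7 of these 30 places were kept. Edn1, Rgs2 and Dnajb9 kept theirs for Klf2.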

How the data were processed

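Single-cell RNA-seq values of 84 cells were taken from the deposited table, which gives TPM per gene and cell. The authors' reads came from single-end sequencing of Nextera XT libraries of full-length cDNA, made on a microfluidic chip per the labels' protocols. The submitters' processing notes list RSEM 1.2.3, Bowtie 0.12.9, CASAVA 1.8.2 and the mm10 build; settings, order and gene annotation are not stated in the sources used here. Columns sum to between 999998 and 1000002, and 0 columns were without a sample. No cell was left out and no doublets were called. The 6 members, the gene lists and the splits were chosen with earlier results of these data known.

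Analyses used Python 3.11.15, pandas 2.3.3, NumPy 2.4.6 and SciPy 1.17.1, with figures from matplotlib 3.10.9. Detection meant TPM 1 or more; differences are of mean log2(TPM + 1), with a pseudocount of 1, over genes detected in at least 5 cells, and are called past 1 log2 unit. The calculation was tested on simulated data. Intervals are Clopper-Pearson at the 95% level. Genes named are the members, Gja4, Dll4, the 5 genes most like each member, the arterial list, and in each other list those with the largest differences or most cells; other list genes given as examples were chosen with their values known. The 7 second-index sets are the technical grouping in the labels. Coordinates are from RefSeq for GRCm38.p6, the assembly that mm10 names; 18956 symbols (93.3%) matched. Alternatives are given at the end.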

Additional observations from a re-analysis of the deposited data

How the results depend on the processing

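The share of cells with 4 or more of the 6 genes was 63.1%, and 81% counting any value above 0, 34.5% from TPM 10, and 83.3%, 83.3%, 41.7% and 50% in second-index sets 1, 3, 6 and 7. The 13 pairs with a positive difference became 7 above the median of detected genes. Counts of called members were 2 by Gja4, 1 by Dll4, 0 by Klf2, 1 by Klf4, 2 by Nos3 and 2 by mesenchyme markers. With a pseudocount of 10 the counts by Gja4, Dll4, Klf4, Nos3 and mesenchyme markers were 0, and with 0.1 they were 3 by Klf2 and 4 by mesenchyme markers. By Gja4 the count was 1 after median-of-ratios scaling, above the median of detected genes and with Gja4 from TPM 10. Above that median it was 2 by Dll4 and 4 by mesenchyme markers. From TPM 10 of the splitting gene it was 0 by Dll4 and 2 by Klf2, and with markers counted from TPM 100 it was 5. Without mesenchyme-marker cells it was 2 by Klf4 and 1 by Nos3. Leaving out each second-index set gave 1 to 3 by Gja4 (1 without set 3, 6 or 7, 3 without set 4), 1 each time by Dll4, 0 to 1 by Klf2 (1 without set 2, 4, 5 or 6), 0 to 1 by Klf4 (0 without set 1, 3 or 7), 2 to 3 by Nos3 (3 without set 2 or 4) and 1 to 3 by mesenchyme markers (1 without set 5, 3 without set 1, 3 or 6). Of the 30 genes most like the members, 7 stayed without mesenchyme-marker cells. Of 433 single member differences, 380 kept their side of the limit, 23 fell under it, 30 passed it and 0 reversed as called values; causes were not tested. Splits without cells high in immediate early genes and the background of genes in 20 to 75 cells were added after the data were seen. No paired analysis was possible because the cells form 1 group. Unknown depth and 1 sample limit each value.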
